A study of Homo sapiens with 4 samples.

Results

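The 42 genes described here are among the longest in the human genome, and most of them are named for their work in neurons. They were listed by name as very long neuronal genes expected in the inactive chromatin of fibroblasts, with earlier results of these data known, and no threshold on a contact value was applied. The list holds 42 of 20090 protein-coding genes on the autosomes and chromosome X. Every map bin that overlaps a gene body in hg19 was assigned to that gene, which gave 331 bins of the 13606 bins kept for analysis, with 1 bin shared by a pair of genes. The genes run from 311.56 kb (CNTN6) to 2473.54 kb (RBFOX1), with a median of 1218 kb. Of the 42 genes, 31 exceed 1 Mb, and CNTN6 and PCDH7 are under 500 kb. They sit on 14 chromosomes, with 8 of them on chromosome 3.

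Chromosome contacts were mapped by Hi-C, in which fixed chromatin is cut, ends that lie close together are ligated, and the joined ends are sequenced. The cells were IMR90, a line of normal human lung fibroblasts, and all of the conditions carry an inducible fusion of the oestrogen receptor with oncogenic HRAS. Grow cells were proliferating cells without induction, and OIS cells received 100 nM 4-hydroxytamoxifen for 6 days, which switches HRAS on and leads to oncogene-induced senescence. Grow-shA1 and OIS-shA1 are the same states in cells with a retroviral microRNA-type hairpin against HMGA1. HMGA1 itself is not measured in these files, so the knockdown could not be checked here. Of the 4 samples 2 are Grow-shA1 and 2 are OIS-shA1, and the authors pooled each of these pairs into 1 map. The Grow and OIS maps were made earlier by the laboratory and match no sample of the series. HMGA1 knockdown and data set therefore cannot be told apart in OIS-shA1 minus OIS or in Grow-shA1 minus Grow. There is 1 map per condition, so the variation between replicates is unknown and no test between conditions was possible. Every SD below is over genes of these maps, except that it is over gene pairs for contact between genes and over bins where stated.

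A nucleus keeps active chromatin (the A compartment) and inactive chromatin (the B compartment) apart, and regions of one kind contact each other even when they lie far apart on the chromosome. Very long genes with neuronal functions are AT-rich, replicate late and lie mostly in B where they are silent, as in fibroblasts. In OIS, heterochromatin of fibroblasts can fold into compact senescence-associated foci, and HMGA1, a protein with AT-hooks that binds the minor groove of A/T-rich DNA, is a structural component of these foci. Such genes are thus long stretches of inactive, A/T-rich chromatin whose contacts can be followed bin by bin.

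The bins of the maps end at cutting sites of HindIII, and an edge at aagctt was found at 331 of 331 bins of the 42 genes and at 99.9% of all bins. Sequences are shown for 4 bins, those with the highest and the lowest difference of contact with B bins between OIS and Grow at most 1 bin a gene, leaving out the chromosome of SNTG1 and NRG1. They show the kind of DNA that the values below refer to. For each bin, 30 bases across its right edge are given with the HindIII site in capitals, and then 30 bases around the unbroken run of A and T of at least 10 bases that lies nearest to the bin's centre, with that run in capitals. All are plus-strand sequence of GRCh37 (hg19).
LRP1B edge, chr2:141998917-141998946: ttgcagatagggAAGCTTgttctccagctg
LRP1B A/T run, chr2:141898351-141898380: aatacaagtgTTTTTAAAAATgcgaaaaaa
FSTL5 edge, chr4:162398076-162398105: cattctgcatgcAAGCTTctcctgtttttg
FSTL5 A/T run, chr4:162299541-162299570: tacaaaaacAATTTTTAAAAAgtgaaaata
MACROD2 edge, chr20:14599375-14599404: gaagtttaagagAAGCTTtgctgaaagttt
MACROD2 A/T run, chr20:14498477-14498506: ccttttctggTATATATTTTctgggctctt
NTM edge, chr11:131601578-131601607: acattggctgcaAAGCTTcctcacagaagt
NTM A/T run, chr11:131500850-131500879: agcttttctcAATTATTATTgtctcatatg

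Each of these windows lies in an intron of the named gene, except that the A/T run of the FSTL5 bin lies outside any annotated gene. The MACROD2 edge also overlaps the intronic transcript MACROD2-IT1, and the NTM run also overlaps the antisense transcript NTM-AS1. The LRP1B bin, chr2:141797754-141998929, has 35.5% GC, with 7.24% of its bases in A/T runs of 10 or more. The FSTL5 bin, chr4:162201109-162398088, has 35.2% GC and 8.09% of bases in such runs. The MACROD2 bin, chr20:14396964-14599387, has 36.5% and 6.92%, and the NTM bin, chr11:131400370-131601590, has 44.8% and 3.06%. Across the 331 bins the median GC content was 37.1%, compared with 39.7% over all kept bins, 38.4% over B bins and 41.6% over A bins. The median share of bases in A/T runs was 6.31%, compared with 5.27% over all bins and 5.57% over B bins.

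The label was checked against the compartments of the Grow map. Of the 331 bins 297 were B and 34 were A, so 89.7% of them were B, compared with 57.9% of all kept bins. In 27 genes every bin was B, and in 36 genes (these 27 included) most bins were B. NTM had 3 B and 3 A bins. The label did not hold for 5 genes, of which most bins were A: GPC6 with 1 B and 6 A bins, PCDH9 with 2 and 4, PCDH7 with 1 and 2, and NRG1 and ROBO1 with 3 and 4 each. No lamin, histone mark or expression data were analysed here, so for these maps "heterochromatin" means compartment B. The compartment score, negative for B, averaged -0.946 ± 0.511 over the 42 genes in Grow and -0.966 ± 0.623 in OIS. Its highest value in Grow was that of GPC6, a heparan sulfate proteoglycan of the cell surface, at 0.583 in Grow, 0.516 in Grow-shA1, 0.927 in OIS and 0.858 in OIS-shA1. The lowest was that of THSD7B, a membrane protein with thrombospondin repeats, at -1.49 in Grow, -1.42 in Grow-shA1, -1.63 in OIS and -1.59 in OIS-shA1. Both genes lay further from 0 in the 2 maps with RAS on than in the 2 without. Between Grow and OIS, 11 of the 331 bins changed compartment (3.32%, compared with 9.76% of all kept bins). From B to A went 2 bins of OPCML and 1 each of GPC6, KCNIP4, LSAMP, NRXN3, NTM and PCDH9, and from A to B went 1 bin each of LRP1B, PCDH7 and ROBO1.

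Each value below is a contact score of a pair of bins, deposited by the authors after balancing and correction for distance, and behaves like a logarithm with an unstated base. A score of 0 is about the mean contact at that distance, and differences are given in score units. Pairs more than 2 Mb apart are called distal, partner bins are A or B as in the Grow map, and only pairs listed in all 4 maps were averaged. The Grow map listed 89.4% of distal pairs of kept bins, Grow-shA1 84.2%, OIS 80.4% and OIS-shA1 78.6%. For the 42 genes the listed share of pairs with B bins went from 97.0% in Grow to 91.5% in OIS-shA1. Their listed share of pairs with A bins was 79.4% in Grow, 71.5% in Grow-shA1, 63.5% in OIS and 60.2% in OIS-shA1. The files hold no reads per pair, and the error of 1 score could not be computed.

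In distal contact with B bins, the 42 genes did not move one way in senescence. Their mean was 0.623 ± 0.337 in Grow, 0.538 ± 0.330 in Grow-shA1, 0.594 ± 0.346 in OIS and 0.502 ± 0.310 in OIS-shA1. OIS minus Grow averaged -0.0287 ± 0.163, with 21 genes above 0 and 21 below. The median over all kept bins was -0.0894, and 31 of the 42 genes lay above it, but only 19 lay above the corresponding median when each map was divided by its SD at the same distance. The mean over the 42 genes itself was 0.0197 when each map was centred at each distance and 0.0743 with compartments taken from each map, so its sign is not settled. A difference past 0.15 score units in either direction is used below as a mark of size. By this mark 5 genes were higher in OIS (3.89% of all protein-coding genes with a value were) and 10 were lower (43.5%). Among B bins of no listed gene 10.1% were higher and 33.1% lower, compared with 11.9% and 23.8% of the 42 genes. Over the 281 other protein-coding genes of 500 kb or more with a value, the mean was -0.0890, and over the 178 of these with mostly B bins it was -0.0707.

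**Figure D1:**
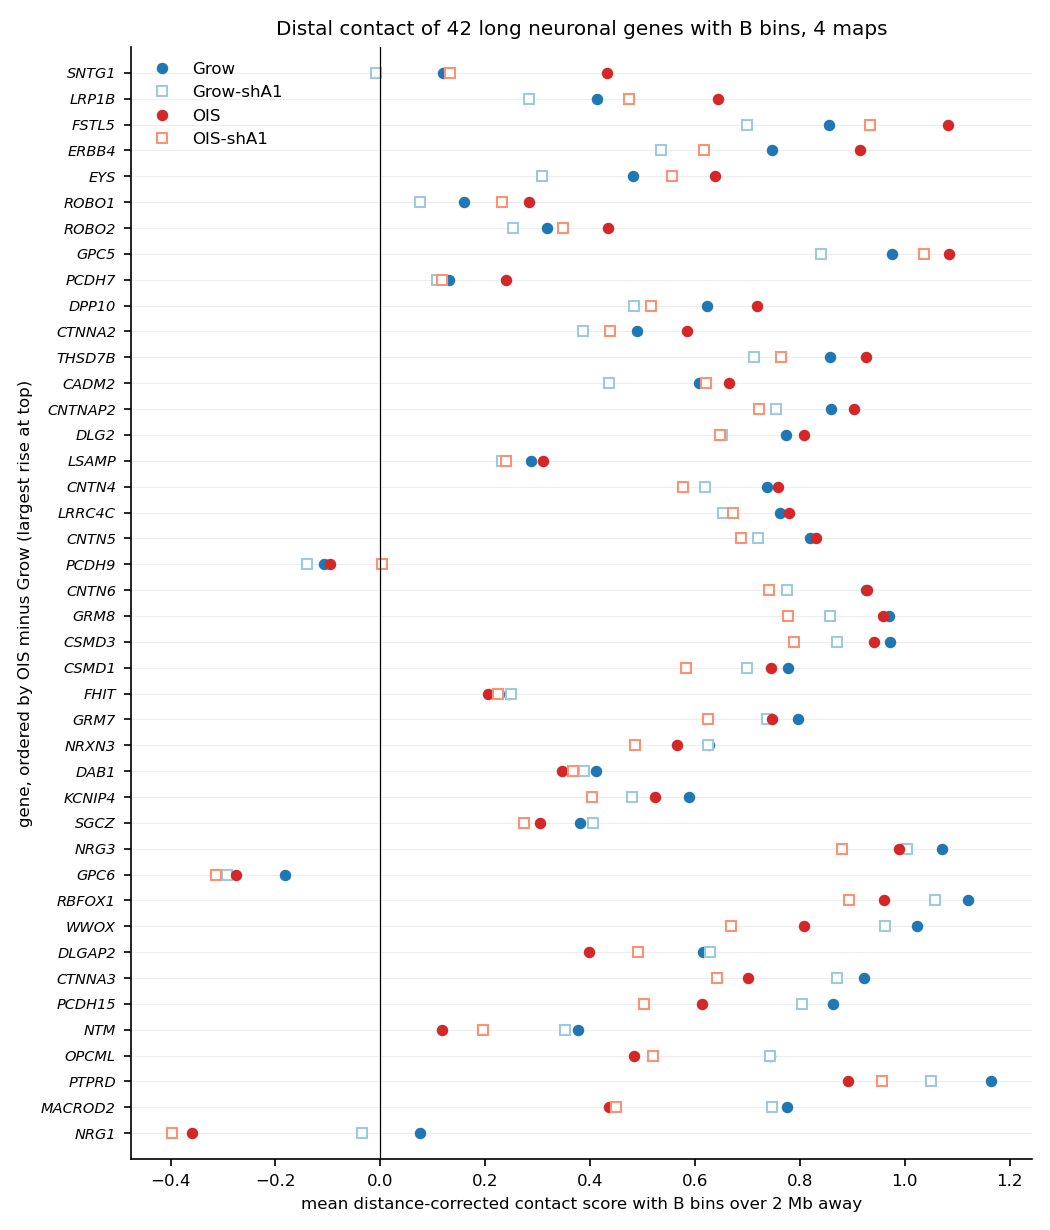
Mean contact score with B bins more than 2 Mb away (horizontal axis, score units) for each of the 42 genes in the Grow, Grow-shA1, OIS and OIS-shA1 maps, 1 point per map, with the genes ordered by OIS minus Grow. SNTG1, at the top, went from 0.120 in Grow to 0.433 in OIS, and NRG1, at the bottom, from 0.0758 to -0.360.

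The 5 genes past the mark upwards were SNTG1, LRP1B, FSTL5, ERBB4 and EYS. SNTG1 encodes a neuronal syntrophin of the dystrophin complex and lies at chr8:50822349-51709252. Its distal contact with B bins was 0.120 in Grow, -0.00867 in Grow-shA1, 0.433 in OIS and 0.132 in OIS-shA1. The OIS map stood alone above the other three for this gene, and 5 of 5 bins were higher in OIS than in Grow (mean difference 0.313). LRP1B, a receptor of the LDL receptor family at a common fragile site, scored 0.413 in Grow, 0.284 in Grow-shA1, 0.644 in OIS and 0.474 in OIS-shA1. Each of its 11 bins was higher in OIS than in Grow (0.231 ± 0.0389, SD over bins), and the printed bin went from 0.129 to 0.434. FSTL5, a secreted follistatin-like protein, scored 0.856 in Grow, 0.699 in Grow-shA1, 1.08 in OIS and 0.933 in OIS-shA1. It had the highest OIS score of these 5 genes, but its difference between OIS and Grow (0.227) was -0.0553 when only pairs 2 to 50 Mb apart were used. ERBB4, the receptor tyrosine kinase that binds neuregulins, scored 0.746 in Grow, 0.536 in Grow-shA1, 0.915 in OIS and 0.618 in OIS-shA1. Its difference (0.169) was likewise below 0 at 2 to 50 Mb (-0.157). EYS, a matrix protein of photoreceptors, scored 0.481 in Grow, 0.309 in Grow-shA1, 0.637 in OIS and 0.555 in OIS-shA1, with 11 of 11 bins higher in OIS than in Grow. Among all B bins of these chromosomes, OIS minus Grow was 0.0809 on chromosome 4 (FSTL5) and 0.00362 on chromosome 6 (EYS). It was -0.000663 on chromosome 2 (LRP1B and ERBB4) and -0.0148 on chromosome 8 (SNTG1).

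The 5 lowest differences were those of NRG1, MACROD2, PTPRD, OPCML and NTM, and no bin of any of them was higher in OIS than in Grow. NRG1 encodes a neuregulin, a ligand of the ERBB receptors, and lies at chr8:31496738-32713184. Its contact with B bins was 0.0758 in Grow, -0.0355 in Grow-shA1, -0.360 in OIS and -0.398 in OIS-shA1, so the 2 maps with RAS on were both below the 2 without. MACROD2, which removes ADP-ribose from proteins, scored 0.776 in Grow, 0.746 in Grow-shA1, 0.435 in OIS and 0.449 in OIS-shA1. The same split of the maps by RAS was seen in these scores and in its printed bin (0.655 in Grow, 0.189 in OIS). The split was not seen with B bins up to 2 Mb away, at 1.07 in Grow and 1.15 in OIS-shA1. Nor was it seen at 2 to 5 Mb, at 0.874 in Grow and 0.998 in OIS-shA1. PTPRD, a receptor phosphatase that organises synapses, scored 1.16 in Grow, 1.05 in Grow-shA1, 0.891 in OIS and 0.956 in OIS-shA1. OPCML and NTM are neighbours on chromosome 11 and encode adhesion proteins of the IgLON family. OPCML scored 0.744 in Grow, 0.743 in Grow-shA1, 0.483 in OIS and 0.520 in OIS-shA1. NTM scored 0.378 in Grow, 0.353 in Grow-shA1, 0.117 in OIS and 0.196 in OIS-shA1. All 5 genes scored lower with RAS on, with or without the hairpin. The other 5 genes lower past the mark, PCDH15 (-0.250), CTNNA3 (-0.220), DLGAP2 (-0.217), WWOX (-0.215) and RBFOX1 (-0.160), had no bin that was higher in OIS either. Contact among all B bins of a chromosome was also lower on chromosomes 16 (-0.284), 20 (-0.182), 9 (-0.176), 10 (-0.124) and 11 (-0.119). On chromosome 8, with NRG1 and DLGAP2, it was -0.0148. WWOX and RBFOX1 fell less than chromosome 16 as a whole. How much of each gene's value is that of its chromosome was not tested.

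By role, the 9 adhesion and guidance genes of the immunoglobulin superfamily held 7 genes above 0 and 2 below in OIS minus Grow. The 7 were the contactins CNTN4, CNTN5 and CNTN6, LSAMP, CADM2 and the Slit receptors ROBO1 and ROBO2, between 0.00163 (CNTN6) and 0.125 (ROBO1), and the 2 were OPCML and NTM. The 4 genes of the neurexin family and other synaptic organisers held 2 above 0 (CNTNAP2 at 0.0450 and LRRC4C at 0.0183) and 2 below (NRXN3 at -0.0618 and PTPRD). The 6 scaffolds, receptors and channel partners of the synapse held 2 above 0, DPP10, an accessory subunit of potassium channels, at 0.0961 and the scaffold DLG2 at 0.0333. The 4 below 0 were DLGAP2, KCNIP4 (-0.0652) and the metabotropic glutamate receptors GRM7 (-0.0485) and GRM8 (-0.0129). Of the 5 cadherins and catenins, PCDH7 (0.108), the alpha-catenin CTNNA2 (0.0953) and PCDH9 (0.0118) were above 0, and PCDH15, a tip-link protein of hair cells, and the alpha-catenin CTNNA3 were below. In neuregulin signalling the receptor ERBB4 was above 0, and the ligands NRG1 and NRG3 (-0.0821) were below. The CUB and sushi proteins CSMD1 and CSMD3 were near 0 at -0.0329 and -0.0313. Of the 4 genes grouped here as common fragile site genes, LRP1B was above 0, and MACROD2, the oxidoreductase WWOX and the hydrolase FHIT (-0.0388) were below. Other listed genes were not checked for fragile sites. The remaining genes were split as well, with GPC5 (0.109), THSD7B (0.0676), FSTL5, EYS and SNTG1 above 0, and GPC6 (-0.0929), the sarcoglycan SGCZ (-0.0772), the splicing factor RBFOX1 and the reelin adaptor DAB1 (-0.0640) below.

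Several features of the genes moved with their place in this order. Across the 42 genes the difference in contact with B bins went with GC content at r = -0.51 (rho = -0.53, and r = -0.47 without the 2 genes farthest from the median GC), with the share of bases in A/T runs at r = 0.51 and with the length of the chromosome at r = 0.55. These are descriptions across genes, several of which share a chromosome, and their part in the differences was not tested. The neighbourhood behaved much as the gene did: the flanks of 1 Mb on both sides averaged -0.0363 in OIS minus Grow, and gene minus flank was 0.00761 ± 0.0700. The bin with the start of transcription differed from the gene's other bins by -0.0157 ± 0.0774, and 40 of 42 start bins were B.

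Distal contact with A bins was lower in OIS for nearly all of the 42 genes. The mean over genes was -0.350 ± 0.241 in Grow, -0.423 ± 0.233 in Grow-shA1, -0.614 ± 0.412 in OIS and -0.587 ± 0.348 in OIS-shA1. OIS minus Grow averaged -0.264 ± 0.236, and 37 of the 42 genes were below 0. Past the mark of 0.15, 25 genes were lower (14.9% of all protein-coding genes were) and 2 were higher (9.48%). Most protein-coding genes are not in B bins, and among B bins of no listed gene 47.6% were lower by the mark, with a mean of -0.168. Of the 331 bins of the genes 65.9% were lower by the mark. Over the 178 other long genes with mostly B bins the mean was -0.180. The value depends on how unlisted pairs are treated: with unlisted pairs counted as 0 the mean over the 42 genes was -0.000806, and the listed share of these pairs differed between the maps as given above. In the other 14 alternatives it was below 0.

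Among the 9 immunoglobulin-type genes all were below 0 in contact with A bins, from -0.463 (CNTN6) to -0.0160 (LSAMP). The 4 synaptic organisers and the 6 synaptic scaffolds, receptors and channel partners were below 0 as well. PTPRD had the lowest difference of all, at -0.480 in Grow, -0.575 in Grow-shA1, -1.31 in OIS and -1.06 in OIS-shA1. Each of its 13 bins was lower in OIS than in Grow, and the OIS-shA1 map lay between OIS and the growing maps. CSMD3 scored -0.511 in Grow, -0.478 in Grow-shA1, -1.17 in OIS and -0.987 in OIS-shA1, in the same order of maps by RAS. The 5 genes above 0 were GPC6, PCDH9, EYS (0.0456), SNTG1 (0.0307) and PCDH7, whose difference was 6.89e-05. GPC6 scored 0.104 in Grow, -0.0101 in Grow-shA1, 0.403 in OIS and 0.307 in OIS-shA1. PCDH9, a protocadherin, scored 0.0903 in Grow, -0.0437 in Grow-shA1, 0.255 in OIS and 0.272 in OIS-shA1. These 2 genes and PCDH7 are among the 5 with mostly A bins, while EYS and SNTG1 have mostly B bins. Over the 42 genes the difference in A contact went with the Grow compartment score at r = 0.73 (rho = 0.71, and r = 0.63 without the 2 farthest genes). The compartment score comes from the same Grow map, so this value is a description of those maps.

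**Figure D2:**
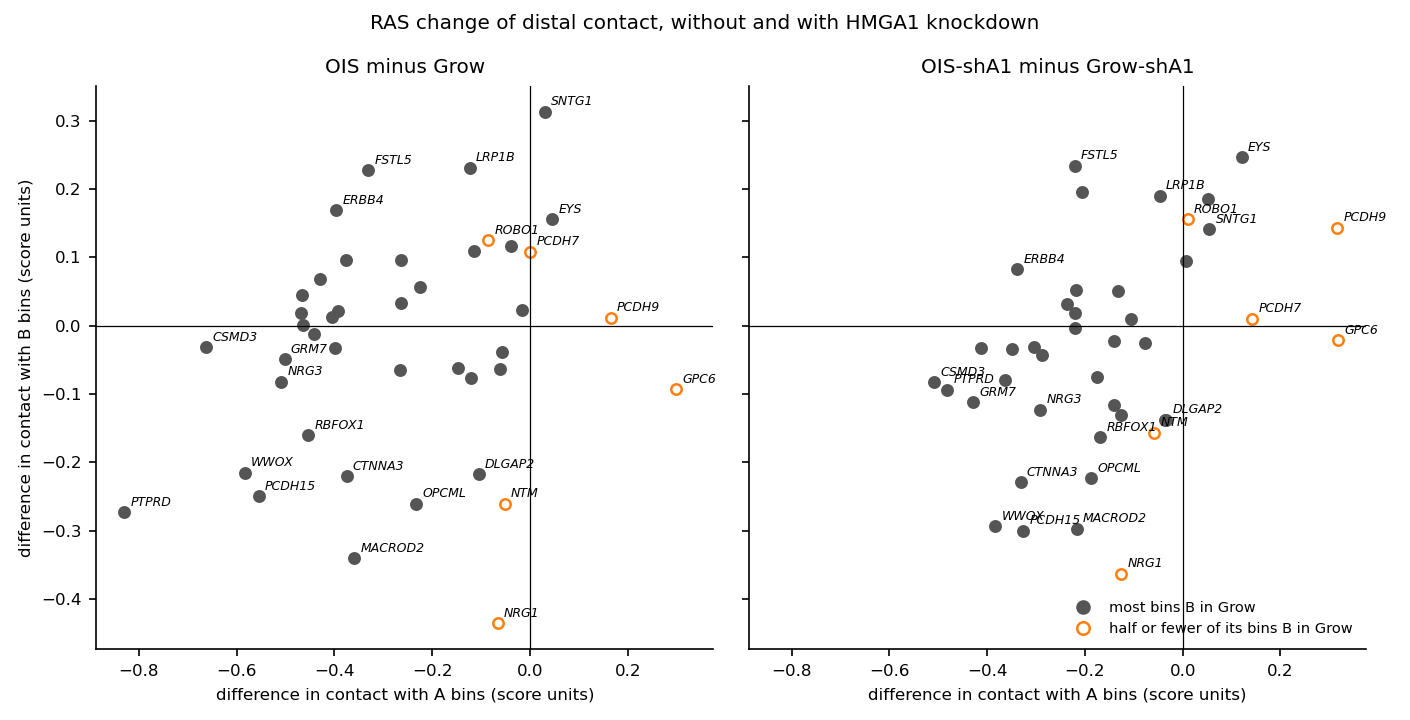
Difference in distal contact with A bins (horizontal) against that with B bins (vertical), in score units, for 42 genes, as OIS minus Grow (left) and OIS-shA1 minus Grow-shA1 (right). Filled points have mostly B bins and open orange points do not; in the left panel 37 genes lie left of 0 while 21 lie above 0, and PTPRD (-0.830) lies farthest to the left.

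Set against each other, contact with B minus contact with A was higher in OIS than in Grow by 0.236 ± 0.254 over the 42 genes, with 35 above 0 and 7 below. Over B bins of no listed gene it was higher by 0.0874. Most of the value for the 42 genes comes from contact with A bins. That difference was only -0.000806 when unlisted pairs were counted as 0, so the size of this gain is not settled.

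The change of contact with B bins depended on distance. At 2 Mb or less it was lower in OIS than in Grow for 40 of the 42 genes (mean -0.362), and at 2 to 5 Mb for 37 (mean -0.270). Among B bins of no listed gene the means were -0.200 and -0.0919, with 71.3% and 59.8% of bins lower. At 50 to 100 Mb the mean over 40 genes with such pairs was 0.119, with 27 genes higher in OIS, compared with 0.0164 and 50.2% of bins for the other B bins. The long-range mean was -0.0343 when each map was divided by its SD at the same distance, so its sign is not settled, while the mean at 2 to 5 Mb was below 0 in 7 of 7 alternatives. In 26 of 40 genes contact was lower at 2 to 5 Mb and higher at 50 to 100 Mb in OIS, and 4 genes had the opposite pattern. The share of other B bins with either joint pattern is not given here.

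Single genes chosen after their values were seen show the pattern. CNTNAP2, which anchors potassium channels on axons, scored 0.732 in Grow, 0.814 in Grow-shA1, 0.231 in OIS and 0.492 in OIS-shA1 with B bins 2 to 5 Mb away. With B bins 50 to 100 Mb away it scored 0.707 in Grow, 0.451 in Grow-shA1, 1.23 in OIS and 0.785 in OIS-shA1. The OIS map was thus the lowest of the 4 at the short range and the highest at the long range. ERBB4 at 50 to 100 Mb scored 0.587 in Grow, 0.217 in Grow-shA1, 1.16 in OIS and 0.609 in OIS-shA1. FSTL5 at that range scored 0.657 in Grow, 0.370 in Grow-shA1, 1.13 in OIS and 0.752 in OIS-shA1. OIS again stood above the other three maps for both genes. Against the pattern, CTNNA3 was lower at 50 to 100 Mb (-0.429), and DLG2 was higher in OIS at 2 to 5 Mb (0.349). With A bins the mean difference was -0.563 at 2 to 5 Mb, where 34 of 36 genes were lower. It came nearer to 0 with distance, to -0.0726 at 50 to 100 Mb. B bins of no listed gene averaged -0.318 and -0.0602 at these distances, with 67.4% lower at 2 to 5 Mb.

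**Figure D3:**
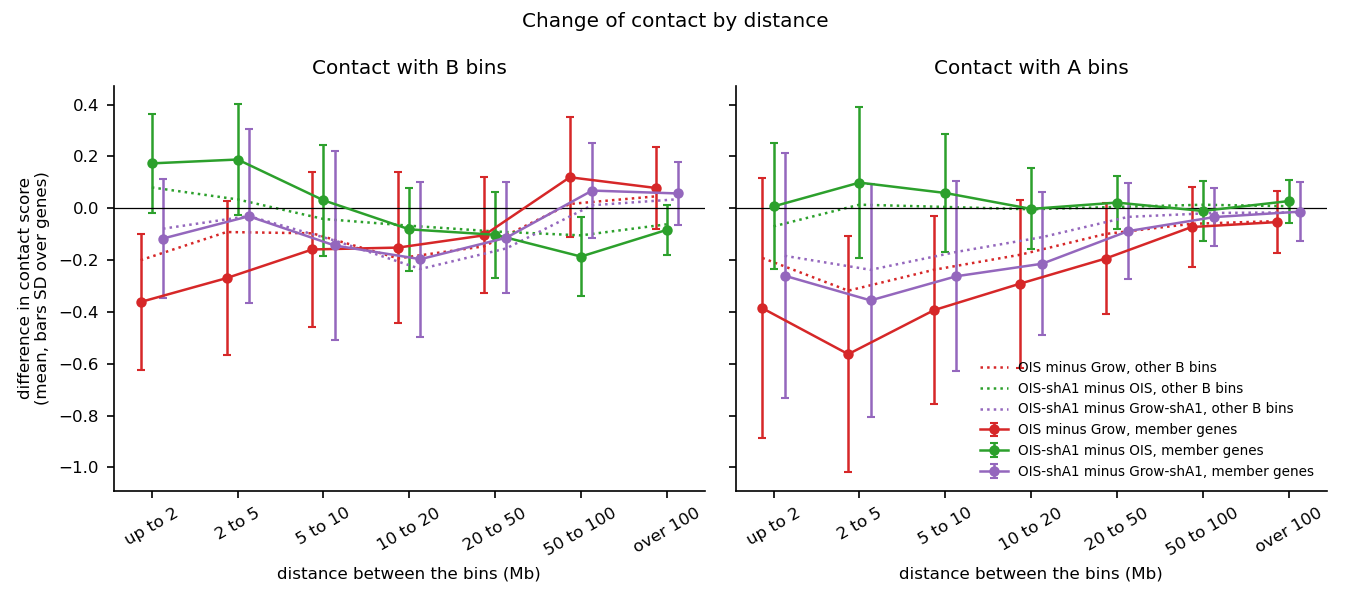
Mean difference in contact score (vertical axis, score units, bars SD over genes) by distance between bins in Mb (horizontal axis), with B bins (left) and A bins (right), for the listed genes with such pairs (points; 42 genes with B bins up to 50 Mb, 40 at 50 to 100 Mb and 28 beyond; with A bins 22 at up to 2 Mb, 36 at 2 to 5 Mb, 42 from 5 to 50 Mb, 40 at 50 to 100 Mb and 23 beyond) and for B bins of no listed gene (dotted lines). With B bins, OIS minus Grow went from -0.362 at up to 2 Mb to 0.119 at 50 to 100 Mb, and OIS-shA1 minus OIS from 0.173 to -0.186.

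Contact within the genes themselves, between different bins of the same gene up to 2 Mb apart, was also lower in OIS. It shares pairs with contact with B bins at 2 Mb or less, which includes a gene's own B bins. Its mean was 0.707 ± 0.451 in Grow, 0.651 ± 0.467 in Grow-shA1, 0.344 ± 0.522 in OIS and 0.508 ± 0.529 in OIS-shA1. OIS minus Grow averaged -0.363 ± 0.331 with 37 of 42 genes lower, and it was between -0.434 and -0.225 in the 7 alternatives. In the 281 other genes of 500 kb or more, which are not all mostly B, the mean was -0.148, with 175 lower. Contact of B bins of no listed gene with B bins up to 2 Mb away averaged -0.200. The immunoglobulin type (9 of 9 lower), the synaptic organisers (4 of 4), neuregulin signalling (3 of 3), the CUB and sushi proteins (2 of 2) and the dystrophin complex (2 of 2) had no member above 0.

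NRG1 had the lowest difference within a gene, scoring 0.193 in Grow, 0.0799 in Grow-shA1, -0.993 in OIS and -1.07 in OIS-shA1. Its receptor ERBB4 scored 1.63 in Grow, 1.56 in Grow-shA1, 0.658 in OIS and 1.02 in OIS-shA1. In NRG1 the hairpin map was as low as OIS, and in ERBB4 it lay between OIS and the growing maps. CNTN5, a contactin, scored 1.38 in Grow, 1.41 in Grow-shA1, 0.579 in OIS and 0.997 in OIS-shA1. PTPRD scored 0.735 in Grow, 0.735 in Grow-shA1, -0.0651 in OIS and 0.477 in OIS-shA1. In both genes the growing maps were close together and OIS was the lowest. DLGAP2, a scaffold of the postsynaptic density near the end of chromosome 8, went the other way, from 0.369 in Grow and 0.203 in Grow-shA1 to 1.13 in OIS and 0.879 in OIS-shA1. The other 4 genes above 0 were GPC6 (0.0909), FHIT (0.0594), PCDH9 (0.0170) and RBFOX1 (0.00490).

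**Figure D4:**
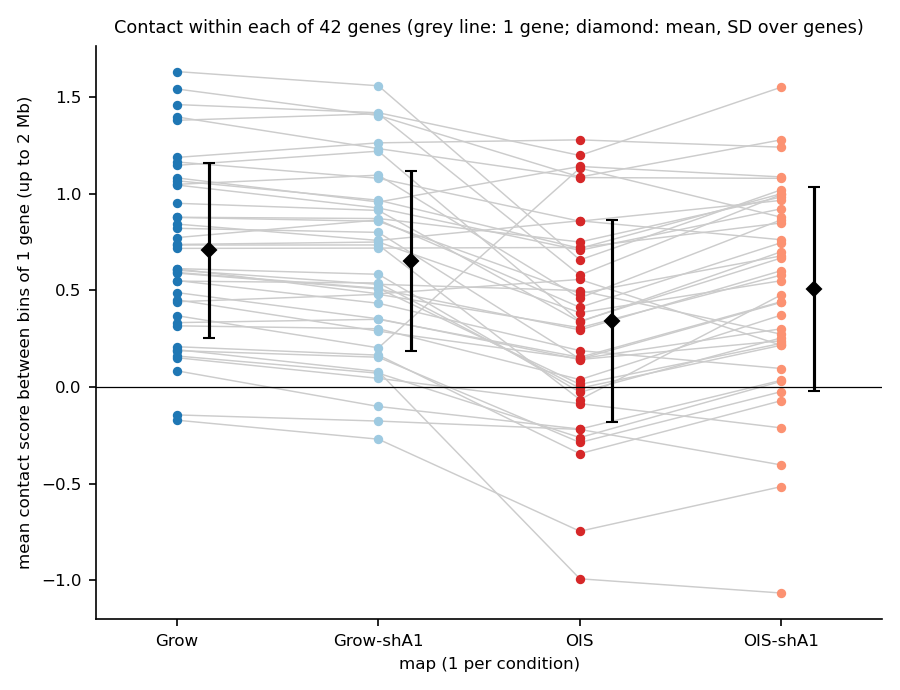
Mean contact score between bins of the same gene up to 2 Mb apart (vertical axis, score units) in each of the 4 maps, 1 point per gene with lines joining a gene, and black diamonds with bars for the mean and SD over 42 genes. The mean is 0.707 in Grow, 0.651 in Grow-shA1, 0.344 in OIS and 0.508 in OIS-shA1.

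Contact between listed genes was measured for the 74 pairs that lie on the same chromosome and have bins more than 2 Mb apart. Their mean was 0.645 ± 0.668 in Grow, 0.543 ± 0.632 in Grow-shA1, 0.683 in OIS and 0.610 in OIS-shA1. OIS minus Grow was 0.0375 ± 0.456, with 40 pairs higher and 34 lower, and was -0.0768 at 2 to 50 Mb and -0.0917 with each map divided by its SD. The 34 pairs with a mean distance over 50 Mb averaged 0.179 ± 0.390 and the 40 nearer pairs -0.0824 ± 0.477. Pairs that share a gene are not independent of each other.

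On chromosome 2, which holds LRP1B, ERBB4, CTNNA2, DPP10 and THSD7B, the 10 pairs averaged 0.610 in Grow, 0.368 in Grow-shA1, 0.963 in OIS and 0.584 in OIS-shA1. OIS was higher than Grow for 8 of these 10 pairs, and OIS-shA1 lower than OIS for 9. Contact among all B bins of chromosome 2 differed by -0.000663 in OIS minus Grow and by -0.113 in OIS-shA1 minus OIS. The share of other pairs on this chromosome that were higher or lower is not given here. The pair LRP1B and ERBB4, 71.0 Mb apart, scored 0.604 in Grow, 0.104 in Grow-shA1, 1.83 in OIS and 0.971 in OIS-shA1, over 72 of 77 possible bin pairs. Its difference between OIS and Grow (1.22) was the highest of the 74. FSTL5 and PCDH7 (1.09) followed with only 4 of 15 bin pairs listed in all maps, at -0.271 in Grow, 0.0223 in Grow-shA1, 0.819 in OIS and 0.329 in OIS-shA1. CSMD3 and SNTG1 scored 0.239 in Grow, -0.152 in Grow-shA1, 1.06 in OIS and 0.162 in OIS-shA1. In each of the 3 pairs OIS was the highest map, an order that choosing pairs by OIS minus Grow favours.

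The lowest pair was SGCZ and DLGAP2, at 0.0816 in Grow, 0.233 in Grow-shA1, -0.905 in OIS and -0.644 in OIS-shA1. CNTN5 and NTM scored 0.659 in Grow, 0.763 in Grow-shA1, -0.302 in OIS and -0.00426 in OIS-shA1. CNTN5 and OPCML scored 1.25 in Grow, 1.47 in Grow-shA1, 0.345 in OIS and 0.678 in OIS-shA1. In these 3 pairs both maps with RAS on lay below both maps without. On the same chromosome, DLG2 and CNTN5, 15.4 Mb apart, went the other way, from 1.23 in Grow to 1.87 in OIS, and the 28 pairs of chromosome 3 averaged 0.00158, with 14 on each side of 0.

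**Figure D5:**
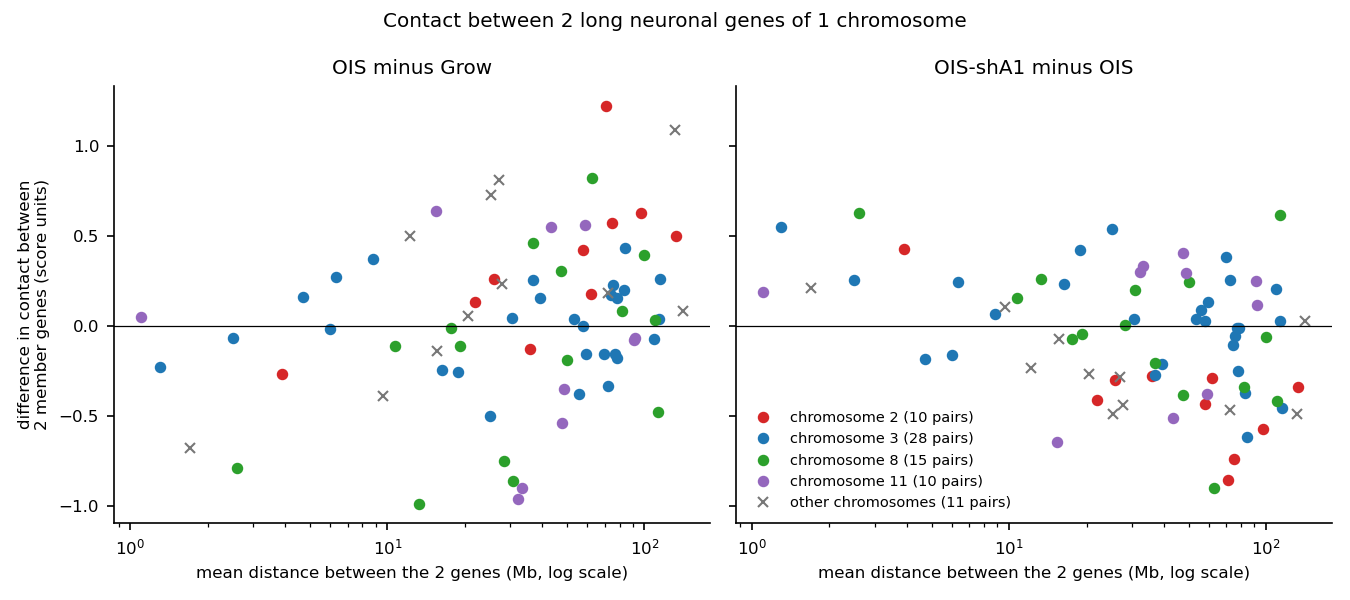
Difference in contact between members of each of 74 gene pairs (vertical axis, score units) against the mean distance between their bins (horizontal axis, Mb, log scale), as OIS minus Grow (left) and OIS-shA1 minus OIS (right), coloured by chromosome. On the left 8 of 10 pairs of chromosome 2 lie above 0, with LRP1B and ERBB4 at 1.22, and on the right 9 of the 10 lie below 0.

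With the hairpin against HMGA1, distal contact with B bins was lower in both states. OIS-shA1 minus OIS averaged -0.0922 ± 0.0943, with 34 genes lower (all-bin median -0.0501). Past the mark of 0.15, 13 genes were lower (15.6% of protein-coding genes were) and 0 were higher (9.25%). Among B bins of no listed gene 26.8% were lower and 3.73% higher, compared with 27.8% and 1.51% of the 331 bins of the genes. By gene the shares were 31.0% and 0, but a gene averages several bins. With centring at each distance the count of 13 was 3, and with each map divided by its SD it was 8. Grow-shA1 minus Grow averaged -0.0854 ± 0.0555, with 39 genes lower (all-bin median -0.0681), and 5 genes were lower past the mark (10.8%) and 0 higher (1.78%). Among B bins of no listed gene 15.0% were lower, and among the 331 bins of the genes 13.6%. This count of 5 was 22 with each map divided by its SD, where the mean was -0.145, and 1 with centring, where the mean was -0.0301. OIS-shA1 minus OIS shares the OIS map with OIS minus Grow, and Grow-shA1 minus Grow shares the Grow map with it.

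In OIS-shA1 minus OIS the lowest genes were SNTG1 (-0.301), ERBB4 (-0.297) and DPP10 (-0.202). DPP10 scored 0.622 in Grow, 0.484 in Grow-shA1, 0.718 in OIS and 0.516 in OIS-shA1. OIS was the highest map for all 3 of these genes, an order that choosing genes by this difference favours. The highest were PCDH9 (0.0993), DLGAP2 (0.0933) and NTM (0.0786). PCDH9 scored -0.108 in Grow, -0.140 in Grow-shA1, -0.0958 in OIS and 0.00349 in OIS-shA1. DLGAP2 scored 0.616 in Grow, 0.629 in Grow-shA1, 0.398 in OIS and 0.491 in OIS-shA1. For DLGAP2 and NTM, OIS was the lowest map, which the choice of genes favours in the same way. In Grow-shA1 minus Grow the lowest were ERBB4 (-0.211), EYS (-0.172) and the adhesion protein CADM2, at 0.608 in Grow, 0.437 in Grow-shA1, 0.664 in OIS and 0.622 in OIS-shA1. The highest were SGCZ (0.0240), DLGAP2 (0.0134) and FHIT (0.00346), which were the 3 genes above 0. SGCZ scored 0.381 in Grow, 0.405 in Grow-shA1, 0.304 in OIS and 0.274 in OIS-shA1. FHIT varied little, at 0.245 in Grow, 0.248 in Grow-shA1, 0.206 in OIS and 0.223 in OIS-shA1.

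The direction in OIS-shA1 minus OIS turned with distance. Contact with B bins was higher in OIS-shA1 for 34 of 42 genes at 2 Mb or less (mean 0.173) and for 35 at 2 to 5 Mb (mean 0.188), and lower for 35 of 40 genes at 50 to 100 Mb (mean -0.186). In 31 of 40 genes it was higher at 2 to 5 Mb and lower at 50 to 100 Mb, again without the share over other B bins. Among B bins of no listed gene the means were 0.0801, 0.0339 and -0.105, with 63.7% and 56.1% of bins higher and 73.0% lower. Within genes OIS-shA1 minus OIS was 0.165 ± 0.205 with 31 of 42 higher. It was -0.00712 with 127 of 281 higher in the other long genes, which are not all mostly B. Grow-shA1 minus Grow, which also compares the data sets, had this pattern in 12 of 40 genes. At 50 to 100 Mb it was lower for 38 of 40 genes (mean -0.135). There 84.3% of B bins of no listed gene were lower (mean -0.0998). Within genes Grow-shA1 minus Grow was lower for 32 of 42 (mean -0.0554). In distal contact with A bins OIS-shA1 minus OIS averaged 0.0275 ± 0.107 with 23 genes above 0, and was -0.0155 with each map divided by its SD. By the mark 7 genes, or 16.7%, were higher (5.51% of protein-coding genes) and 1 lower (4.89%). Of the 331 bins of the genes 22.7% were higher and 10.9% lower, compared with 18.3% and 13.2% of B bins of no listed gene. Grow-shA1 minus Grow averaged -0.0728 ± 0.0502, with 0 genes higher (0.951%) and 5, or 11.9%, lower (3.27%), and was 0.000306 with unlisted pairs counted as 0. Among B bins of no listed gene 13.4% were lower, and among the 331 bins of the genes 16.6%.

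The RAS change in cells with the hairpin, OIS-shA1 minus Grow-shA1, shares no map with OIS minus Grow and uses 1 data set. In contact with B bins it averaged -0.0354 ± 0.151, with 6 genes higher past the mark (7.44%) and 8 lower (37.3%). Gene by gene it resembled the change without the hairpin, at r = 0.89 (rho = 0.90) over 42 genes with a slope of 0.83, and 37 genes had the same sign. In contact with A bins it averaged -0.164 ± 0.191, with 2 genes higher (14.1%) and 23 lower (14.0%), and was 0.0295 with unlisted pairs counted as 0. Lower by the mark were 54.8% of the 42 genes, 58% of their 331 bins and 39.9% of B bins of no listed gene. Here r was 0.90 with a slope of 0.73, and 39 genes had the same sign. The RAS change with the hairpin minus that without was -0.00678 ± 0.0735 for B bins, 0.10 ± 0.105 for A bins with 34 genes above 0, and 0.220 ± 0.184 within genes with 35 of 42 above 0. Over B bins of no listed gene the mean was -0.00838 for B bins and 0.0705 for A bins, with 5246 of 7569 above 0. Within the 281 other long genes, which are not all mostly B, it was 0.0612, with 161 above 0. For contact of B bins of no listed gene with B bins up to 2 Mb away it was 0.121. The value within the 42 genes was between 0.175 and 0.263 in 7 alternatives. An offset between data sets that is the same in growing and senescent cells drops out of this value, and any other does not.

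Relatives of the listed genes in the same families were mostly shorter. Of the 71 relatives on the list (such as the remaining neurexins, contactins, glypicans, metabotropic glutamate receptors and protocadherins) 62 are under 500 kb, with a median length of 124 kb. Of the 70 with a score 32 had a compartment score above 0 in Grow. For distal contact with B bins, OIS minus Grow had a median over the relatives of -0.124 with 52 lower, beside -0.00564 for the 42 long genes and -0.122 for all protein-coding genes. By the mark 3 relatives (4.29%) were higher and 32 (45.7%) lower, close to the 3.89% and 43.5% of all protein-coding genes.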

How the data were processed

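Hi-C contact scores of 4 conditions were analysed. Per the authors, reads were mapped with HiC-Pro (hg19), artefacts and duplicates were filtered, and matrices of about 200 kb per bin were ICE-normalised and corrected for distance. The deposited score is given per pair of bins. Its log base and prior are not given in the sources used here, and no read counts are given.

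Bins with at least 50% of pairs listed in every map were kept (13606 of 14310 on the autosomes and X; 134 bins of chromosome Y were not used). Genes were placed by GENCODE lifted to GRCh37. Compartments came from the first principal component of each chromosome's correlation matrix. A gene's value is the mean over its bins of the mean score with partner bins, for bins with at least 10 pairs. Scripts (Python 3.11.15, numpy 2.4.6, pandas 2.3.3, scipy 1.17.1, matplotlib 3.10.9) were tested on simulated data. The members, the lists and the mark of 0.15 were chosen with earlier results of these data known. Named genes were those with the 5 highest and 5 lowest OIS minus Grow, the 3 highest and 3 lowest of the knockdown comparisons and gene pairs, the extreme compartment scores and the mostly A genes; other genes given by distance or within genes were chosen after their values were seen. Alternatives changed distance, scale, centring, listing, compartments, bins, genes and threshold. Those for contact within genes and by distance were chosen after seeing the data.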

Additional observations from a re-analysis of the deposited data

Results flagged for a closer look

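CADM2, a synaptic adhesion gene on chromosome 3, was noted because its RAS change of distal contact with A bins had opposite signs without and with the hairpin and differed by more than 0.15. It scored -0.740 in Grow, -0.789 in Grow-shA1, -0.965 in OIS and -0.737 in OIS-shA1. OIS minus Grow was -0.224, with 6 of 6 bins lower, and OIS-shA1 minus Grow-shA1 was 0.0514, so the changes differed by 0.276. 2 other genes had opposite signs with a smaller difference, ROBO1 (-0.0850 without the hairpin, 0.00997 with it) and ROBO2 (-0.0397 and 0.00770). With B bins 5 genes did, CNTNAP2, DLG2, CNTN4, CNTN5 and CNTN6, each by less than 0.15. None of these differences was tested, since there was 1 map per condition.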

How the results depend on the processing

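No paired analysis was possible because each hairpin map pools its 2 samples and no result comes from a test. The mean values kept their sign in all alternatives for distal contact with B bins in OIS-shA1 minus OIS (-0.117 to -0.0524) and Grow-shA1 minus Grow, for contact with A bins in OIS minus Grow (-0.316 to -0.000806), for contact within genes in OIS minus Grow (-0.434 to -0.225) and for contact with B bins up to 2 Mb and at 2 to 5 Mb in OIS minus Grow. Gene by gene, 18 of 42 kept the sign of OIS minus Grow with B bins in all 10 alternatives tried per gene, and 24 of 42 with A bins. The cause of the changes below was not tested.

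At 2 to 50 Mb the RAS change with minus without the hairpin for B bins was 0.0111, and contact between genes was -0.0768 in OIS minus Grow and 0.0104 in OIS-shA1 minus OIS. With each map divided by its SD at the same distance, B contact in Grow-shA1 minus Grow was -0.145 and its RAS change with minus without the hairpin 0.0754, A contact in OIS-shA1 minus OIS -0.0155, contact between genes in OIS minus Grow -0.0917, and B contact at 50 to 100 Mb -0.0343 in OIS minus Grow, -0.255 in Grow-shA1 minus Grow and 0.0699 for the RAS change with minus without the hairpin. With centring at each distance, B contact in OIS minus Grow was 0.0197, A contact in Grow-shA1 minus Grow -0.0214, contact within genes in Grow-shA1 minus Grow 0.000325, and B contact at 2 to 5 Mb in OIS-shA1 minus Grow-shA1 0.0734. With unlisted pairs as 0, A contact was -0.000806 in OIS minus Grow, 0.000306 in Grow-shA1 minus Grow and 0.0295 in OIS-shA1 minus Grow-shA1. With compartments from each map, B contact was 0.0743 in OIS minus Grow, 0.0430 in OIS-shA1 minus Grow-shA1 and 0.163 there at 2 to 5 Mb. Without chromosome 3, the RAS change with minus without the hairpin between genes was -0.0409.

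Counts past the mark moved with its size and the scale. For B bins in OIS minus Grow, genes higher were 9 at 0.10, 1 at 0.25 and 9 with centring, and genes lower 5 at 0.25 and 21 with SD scaling. In OIS-shA1 minus OIS, genes lower were 22 at 0.10, 2 at 0.25, 3 with centring and 8 with SD scaling, and genes higher 3 with SD scaling. In Grow-shA1 minus Grow, genes lower were 21, 0, 1 and 22 under these 4 settings. In OIS-shA1 minus Grow-shA1, genes lower were 14 at 0.10, 4 at 0.25 and 16 with SD scaling, and genes higher 0 at 0.25. For A bins in OIS minus Grow, genes higher were 1 at 0.25 and 1 with SD scaling. In OIS-shA1 minus OIS, genes higher were 1 at 0.25 and 2 with SD scaling, and genes lower 5 at 0.10, 0 at 0.25 and 3 with SD scaling. In Grow-shA1 minus Grow, genes lower were 10 at 0.10, 0 at 0.25 and 1 with centring. In OIS-shA1 minus Grow-shA1, genes higher were 4 at 0.10, 4 with centring and 4 with SD scaling, and genes lower 13 at 0.25.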
